A study of Saccharomyces cerevisiae with 1 sample.

Results

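The nucleotides described here are the positions of the yeast 25S rRNA at which reads from an untagged control library carried mainly substitutions. They were selected by 3 measured values: at least 100 hits, substitutions and deletions together at 3% of hits or more, and substitutions equal to or above deletions. Of the 3396 nucleotides of the 25S rRNA, 2374 had at least 100 hits, and 124 of these met all 3 criteria (5.22%, which is also the background share, since the rule itself makes the call). Because the rule uses hits, substitutions and deletions, these values are given as a description, with no test. In all, 220 nucleotides (9.27%) reached the 3%, and the other 96 (4.04%) had deletions above substitutions and are called deletion-led below.

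The data are 1 CRAC library of BY4742, a Saccharomyces cerevisiae laboratory strain that carried no tag. The cells were grown in minimal medium (YMM) lacking tryptophan, with glucose, to a final OD of 0.6, and proteins were cross-linked to RNA in the living cells. The library was amplified over 16 PCR cycles and sequenced on a MiSeq instrument, and the HTP-Dbp6 library to which it serves as the control was not analysed here. With 1 library there is no replicate error for any value, and no comparison between conditions. Hits, substitutions and deletions are the deposited whole numbers per nucleotide, labelled as hits per 100000 reads. The number of reads behind them is unknown, and reads amplified by PCR are not independent molecules.

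The 25S rRNA is the large RNA of the 60S ribosomal subunit, folds into domains I to VI, and forms the peptidyl transferase centre in domain V. In CRAC, UV light links proteins to the RNA that they touch, and the recovered RNA fragments are copied by a reverse transcriptase. This enzyme can insert a wrong base or skip a base where an amino acid remains attached to the RNA. It can also do so at some modified nucleotides, above all those whose methyl group lies on the base-pairing face, such as N1-methyladenosine and N3-methyluridine. A base that differs between the RNA and the reference sequence, and errors of amplification, sequencing or alignment, also appear as substitutions in a pileup. The deposited pileup gives the number of substitutions but not which base was read. No tagged protein was present in this library. The paper holds that most rRNA sequences recovered, with tagged Dbp6 or in the control, are likely contaminating mature rRNA. Hits and substitutions are therefore not assigned to contacts of any protein here.

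The sequences around the nucleotides with the highest substitution rates are shown first, together with those around the remaining members with the most substitutions. They are read from the deposited pileup of RDN25-1, whose gene lies at chrXII:451786-455181 on the minus strand of build R64, according to RefSeq coordinates and its locus tag. Each is written 5′ to 3′ as 21 bases of the RNA strand with T for U, and capitals mark every substitution-led nucleotide in the window. A2242, also among the highest rates, is shown further on with its group.
C1846 (chrXII:453326-453346): ctgataaccgCagcaggtctc
U2175 (chrXII:452997-453017): gaaagtgaTgTtgacgcaatg
A327 (chrXII:454845-454865): aaagctaaatAttggcgagag
C3099 (chrXII:452073-452093): ctaccatccgCtggattatgg
U3304 (chrXII:451868-451888): aAatcatttgTatacgacTta
G2777 (chrXII:452395-452415): ttagtccctCGgaattTgagg
C2545 (chrXII:452627-452647): aattcattttCcacgttctag
G2605 (chrXII:452567-452587): attgtcaggtGgggagttTGg
A2213 (chrXII:452959-452979): tctgaatgtcAaagtgaagaa

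Substitution rates of the 124 nucleotides ran from 1.79% to 57.1% of hits, with a median of 6.67%. The quartiles were 4.22% and 9.62%. Over all 2374 nucleotides with at least 100 hits the median rate was 0.282%, and 853 of these nucleotides (35.9%) had no substitution at all. Among the 124, 7 nucleotides had a rate of 20% or more, 23 lay between 10% and 20%, 49 between 5% and 10%, and 44 between 3% and 5%. Of all 2374 nucleotides, 31 (1.31%) had substitutions at 10% of hits or more, and 30 of these were members, since the rule selects on this value. The remaining member, U2510, reached the limit only with its deletions added, with 13 substitutions and 9 deletions in 725 hits. The members closest to the limit on the inside were C2304 with 3 substitutions in 100 hits, U2510, and U286 with 8 in 263. Just outside it lay C1614 with 3 substitutions in 101 hits, G2008 with 3 in 102, and U2866 with 20 substitutions and 11 deletions in 1065 hits. At 100 hits a single unit of the deposited substitutions is 1% of hits, so membership near the limit turned on single units. The plot of rate against hits shows these whole-number steps as curved rows of points.

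**Figure D1:**
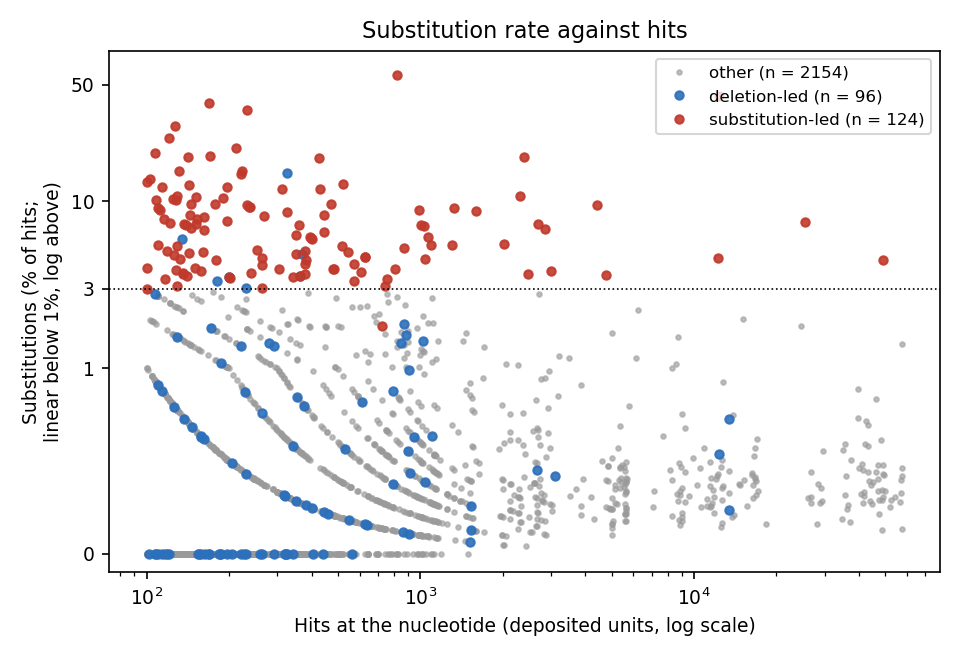
Substitution rate (percent of hits, vertical axis, linear below 1% and logarithmic above) against hits (logarithmic horizontal axis, deposited units) for each 25S nucleotide with at least 100 hits. Red points are the 124 substitution-led nucleotides, blue points the 96 deletion-led ones and grey points the other 2154, and the dotted line marks 3%. The red points extend from 100 to 49235 hits, and all but 1 lie on or above the line.

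Substitutions were concentrated in few of these nucleotides. The 124 held 3.14% of all 25S hits but 40.7% of all 25S substitutions, or 15102 of them. U2175 alone accounted for 14.2% of the 25S substitutions, and the 5 members with the most substitutions for 28.0%. Without U2175, the other 123 nucleotides held 30.9% of the remaining substitutions, and their pooled rate was 6.45%, against 9.16% with it. These shares follow from the rule and describe how unequal the members were.

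The highest substitution rate was that of C1846 in domain III, with 470 substitutions and no deletion in 823 hits (57.1%). U2175 in domain IV followed with 5257 substitutions in 12351 hits (42.6%), and had 3574 deletions as well (28.9%), so that 71.5% of its hits were changed. A327 in domain I had 66 substitutions (39.1%) and 26 deletions in 169 hits. These members thus differed in hits by more than an order of magnitude, and C1846 differed from U2175 and A327 by the lack of deletions.

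C3099 in domain VI had 82 substitutions and no deletion in 233 hits (35.2%). A2242 in domain IV had 36 in 127 hits (28.3%), also without a deletion. U3304 in domain VI had 29 substitutions and 8 deletions in 120 hits, and G2777 in domain V had 44 substitutions and 25 deletions in 211 hits. These were the 7 nucleotides at 20% or more, and they lay in 5 of the 6 domains. Below them were G1194 (19.6%), U782 (18.8%), A2213 and A972 (both 18.4%) and G1573 (18.3%). U777, A2281, C2776, C1118, U1606, A883, G1655 and A2404 completed the 20 highest, with rates between 12.3% and 15.3%.

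**Figure D2:**
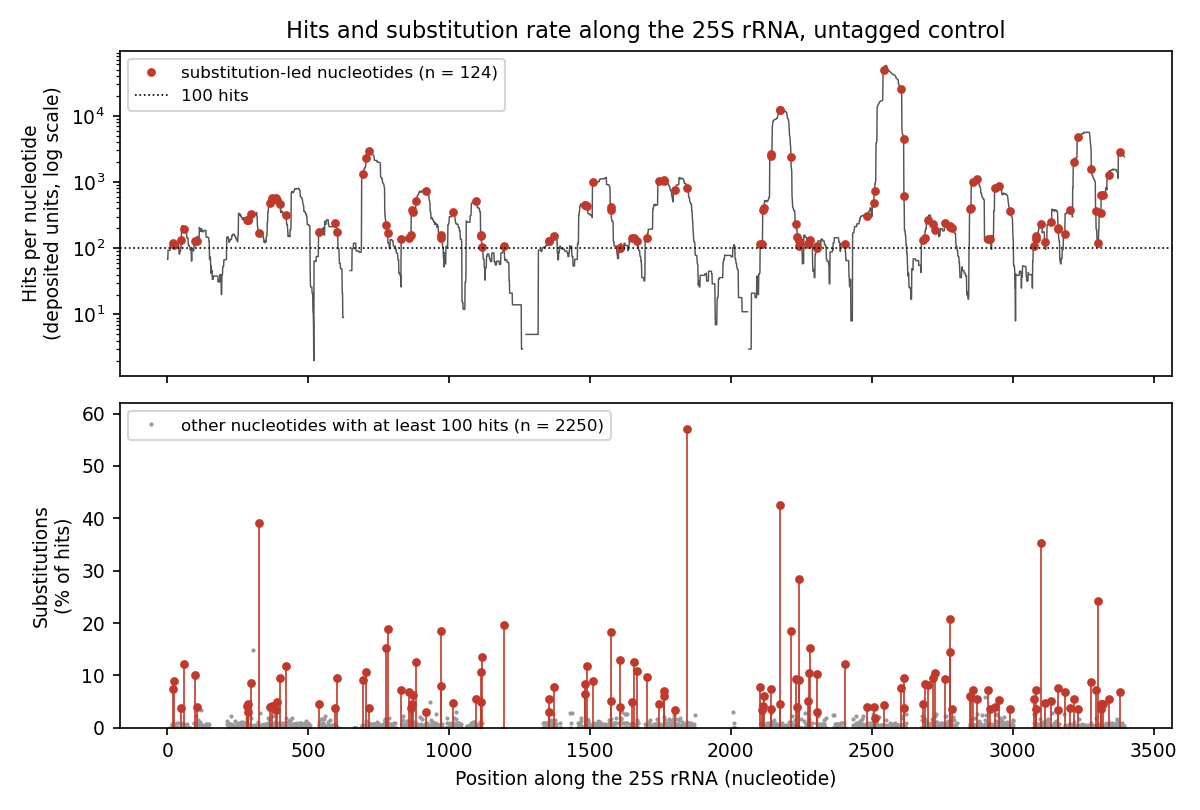
Hits per nucleotide on a logarithmic axis (upper panel, deposited units) and substitutions in percent of hits (lower panel) along the 25S rRNA of the untagged control. Red points are the 124 substitution-led nucleotides, and grey points are the other 2250 nucleotides with at least 100 hits. Red points occur along the whole rRNA, and the highest rates (57.1% at C1846, 42.6% at U2175 and 39.1% at A327) lie far apart.

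By number of substitutions the order was different. After U2175, C2545 had 2186 substitutions in 49235 hits (4.44%) and G2605 had 1907 in 25336 hits (7.53%), both without a deletion and both in domain V. U2173 had 560 substitutions and 155 deletions in 12191 hits, and C1846 came next with 470. These nucleotides, C1846 apart, lay in the 2 highest stretches of hits, whose maxima were 13435 hits at nucleotide 2178 and 57549 hits at nucleotide 2551. C2545 thus passed the limit with a rate near the lower end of the members while carrying more substitutions than any member except U2175.

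Deletions were absent at 105 of the 124 nucleotides (84.7%), a share close to the 86.0% among all nucleotides with at least 100 hits. The other 19 had between 1 and 3574. U2875 in domain V had 60 substitutions and 47 deletions in 1093 hits, and the neighbours C2776 and G2777 had 25 deletions each beside 32 and 44 substitutions. C1762 in domain III had 65 substitutions and 32 deletions in 1064 hits, and U2510 had the 13 and 9 given above. At no member were substitutions and deletions equal.

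Deletion-led nucleotides lay within a few nucleotides of some members. Of the 124 members, 46 (37.1%) had a deletion-led nucleotide within 5 nucleotides, against 26.0% of all nucleotides with at least 100 hits. This was not tested. At the 111 non-member nucleotides directly upstream of a member, 10 were deletion-led (9.01%), and directly downstream 7 of 111 were (6.31%), beside 4.04% of all nucleotides with at least 100 hits. These neighbours were taken at any number of hits, whereas a deletion-led nucleotide has at least 100. At the same neighbours, which by selection are not members, the median substitution rate was 0.302% upstream and 0.159% downstream. The 26 members that lie next to another member are not among them. At distances of 2 to 5 nucleotides on either side, the deletion-led share of non-members was between 3.39% and 6.96%. Pooled deletions were 1.19% of hits directly upstream and 4.14% directly downstream, with a median of 0 on both sides.

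Uridines and guanosines made up most of the substitution-led nucleotides. U and G each contributed 38 of the 124 (30.6%), C contributed 26 (21.0%) and A 22 (17.7%). Among all nucleotides with at least 100 hits the shares were 24.8% U, 28.7% G, 19.4% C and 27.0% A. The share of members minus the share of these nucleotides was -9.30 percentage points for adenosine and 5.83 points for uridine. For G and C it was 1.92 and 1.55 points. Put per base, 3.43% of adenosines with at least 100 hits were members, against 5.57% of guanosines, 5.64% of cytidines and 6.45% of uridines. With at least 1000 hits the difference for adenosine was absent, at 23.8% of 21 members and 23.8% of 496 nucleotides. At that level U made up 47.6% of members against 28.2% of nucleotides. Guanosine and cytidine were then below their share, with G at 14.3% against 29.0% and C at 14.3% against 19.0%. These shares describe 1 sequence in 1 library, and no test was made of them.

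The adenosines that did belong had the higher rates. Their median rate was 9.20%, and 10 of the 22 (45.5%) reached 10%, compared with 7 of 26 cytidines, 8 of 38 guanosines and 5 of 38 uridines. The medians were 6.88% for C, 6.50% for G and 5.45% for U. Median hits were 230 for member adenosines, 234.5 for cytidines and 225.5 for guanosines but 346.5 for uridines, and the part of this difference in the rates was not tested. In the deletion-led nucleotides cytidine was scarce, with 8 of 96 (8.33%), and uridine made up 37 (38.5%). Cytidine was therefore the base at which the kinds of mark differed most, with 26 substitution-led and 8 deletion-led nucleotides of 461.

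**Figure D3:**
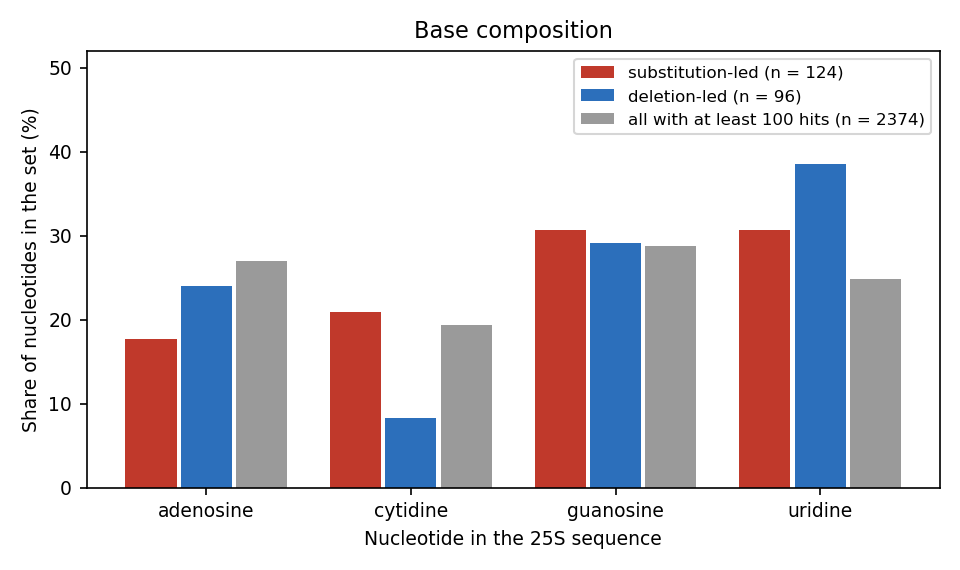
Share of each base (percent, vertical axis) among the 124 substitution-led nucleotides (red), the 96 deletion-led nucleotides (blue) and all 2374 nucleotides with at least 100 hits (grey). Cytidine makes up 21.0% of the red set and 8.33% of the blue one, and adenosine 17.7% of the red set against 27.0% of the grey one.

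The base after a member was most often adenosine, in 45 of 124 cases (36.3%), against 26.2% after all nucleotides with at least 100 hits. The split was strongest for pyrimidines. Of 214 pyrimidines that precede an A, 22 were members (10.3%), with 12 of 108 at UA steps and 10 of 106 at CA steps. Purines before A were members in 5.64% of cases, pyrimidines before another base in 5.02% and purines before another base in 4.04%. Of the 103 adenosines before a C, 1 was a member. Pyrimidines before A were also above the other classes among the deletion-led nucleotides, with 12 of 214 (5.61%). With at least 500 hits, 5 of 73 pyrimidines before A were members (6.85%, against 4.25% of all nucleotides at that level), and with 100 to 500 hits 17 of 141 were (12.1%, against 5.76%). This grouping was chosen after the values were seen. A neighbour of the same base was present at 45.2% of the members, beside 49.0% of all nucleotides with at least 100 hits.

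About as many members stood close to another member as stood alone. Of the 124, 65 (52.4%) had another member within 5 nucleotides, and 26 of these were directly adjacent to one. Over all nucleotides with at least 100 hits, 38.2% had a member within 5 nucleotides and 10.2% had one next to them. The median distance to the nearest other member was 5 nucleotides for members and 8 for all of these nucleotides. Members joined at distances of up to 5 nucleotides formed 87 groups, of which 59 held 1 member, 21 held 2, 5 held 3 and 2 held 4.

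Both groups of 4 lay in domain IV, on opposite sides of the stretch of hits around nucleotide 2178. They are shown with 5 nucleotides on either side, members in capitals.
G2105 to C2118 (chrXII:453059-453082): acttaGaacTggtaCggaCaaggg
C2231 to A2242 (chrXII:452935-452956): tcaacCaagcGcggGtAaacgg
In the first group G2105 had 9 substitutions in 115 hits, U2109 had 4 in 116, C2114 had 16 in 379 and C2118 had 24 in 399. Rates were between 3.45% and 7.83%, and hits rose within the group. In the second, C2231 had 22 substitutions and 8 deletions in 236 hits, G2236 had 6 substitutions in 150, G2240 had 10 in 110 and A2242 had 36 in 127. Here hits were lower at the 3′ members than at C2231, and the rate was highest at the last of them.

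The 5 groups of 3 lay at nucleotides 284 to 287, 865 to 871, 1112 to 1118, 1483 to 1488 and 3312 to 3319. Rates within them were lowest from 284 to 287, between 3.04% and 4.56%, and reached 13.6% at C1118. In 8 of the 37 pairs of successive members at most 5 nucleotides apart both had the same number of hits, and in 2 pairs they had the same number of substitutions. G3315 and U3319 shared both, with 29 substitutions in 627 hits each. G2848 and C2852 had 24 substitutions each, in 393 and 402 hits. Whether the same reads carried both changes cannot be told from a pileup, so members of a group may not be independent of each other.

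To place the nucleotides relative to the edges of hit peaks, a peak was taken as an unbroken run of nucleotides with at least 1000 hits. There were 10 such peaks, covering 496 nucleotides (14.6% of the 25S rRNA), and 7 of them contained members. Of the 124 members, 21 (16.9%) lay inside a peak, against 20.9% of all nucleotides with at least 100 hits. Within peaks, members lay nearer to the ends. Their median distance to the nearer end was 7 nucleotides, against 14 for all peak nucleotides, and 13 of the 21 (61.9%) were within 10 nucleotides of an end, against 39.5%. The 13 were split between the 5′ end (7) and the 3′ end (6). For the deletion-led nucleotides the median was 21 nucleotides, and 4 of 11 were within 10. Peaks were from 1 to 101 nucleotides long, and the comparison does not account for their length. In the peak of 22 nucleotides from 2858 to 2879, with 2 members and 2 deletion-led nucleotides, every position is within 10 of an end.

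At the outermost positions, U2613 was the last nucleotide of its peak, with 423 substitutions and 100 deletions in 4431 hits, and the next nucleotide, G2614, had 606 hits and 23 substitutions. U2858 was the first nucleotide of its peak, with 73 substitutions in 1006 hits. G3216 lay 1 nucleotide inside, with 112 substitutions in 2014 hits. A2213 lay 3 nucleotides from the 3′ end of its peak, with 441 substitutions in 2391 hits (18.4%), where hits 5 nucleotides upstream were 5131. U2175 and C2545, by contrast, were 37 and 32 nucleotides from the nearer end. The members in peaks thus included nucleotides at the edges and nucleotides well inside.

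A second measure needs no peaks. Hits 5 nucleotides upstream and 5 nucleotides downstream differed at least 2-fold at 38 of the 124 members (30.6%), against 20.7% of all nucleotides with at least 100 hits and 19.8% of the deletion-led ones. Of the 38, 21 lay on a rise and 17 on a fall. Of the members, 44 (35.5%) were within 3 nucleotides of a jump between neighbouring nucleotides of at least 20% of the larger value, against 25.6% of all nucleotides with at least 100 hits. Members of 1 group can share an edge, and these differences were not tested. Among nucleotides with at least 1000 hits, 8 of 21 members (38.1%) lay at a 2-fold difference, against 20.8%.

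**Figure D4:**
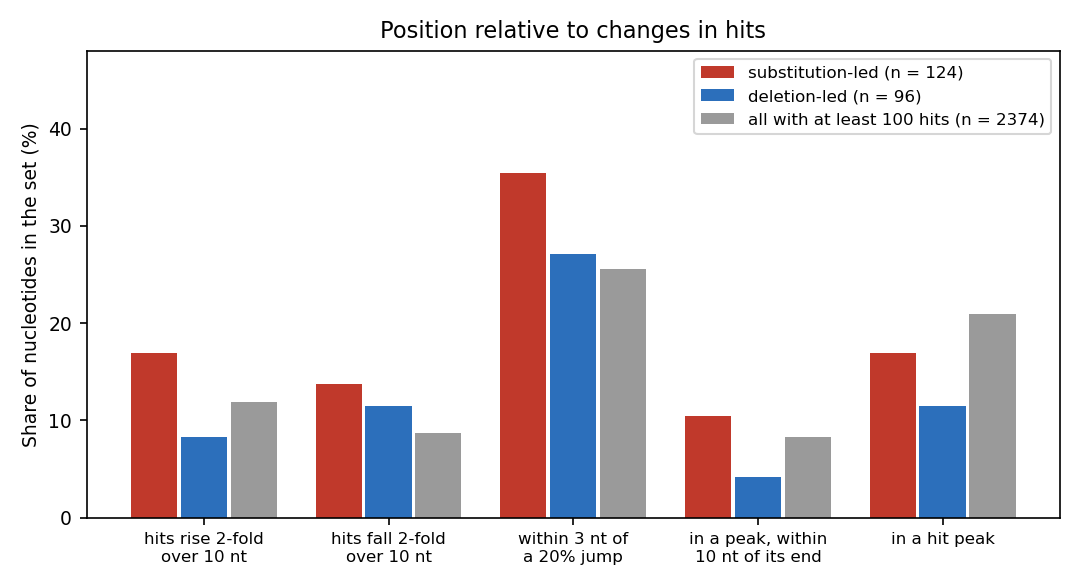
Share of nucleotides (percent, vertical axis) at a 2-fold rise or fall of hits over 10 nucleotides, within 3 nucleotides of a 20% jump, within a hit peak and at most 10 nucleotides from its end, or anywhere in a hit peak, for the substitution-led (red), deletion-led (blue) and all nucleotides with at least 100 hits (grey). The red bars exceed the grey ones in the first 4 classes (for the jump, 35.5% against 25.6%) and lie below in the last (16.9% against 20.9%).

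Members occurred in each of the 6 domains. Domain V held 26, domain II 23, domains I and VI 20 each, domain IV 18 and domain III 17. Relative to the nucleotides with at least 100 hits, the share was 8.04% in domain IV and 6.43% in domain VI, and lay between 4.12% and 5.05% in domains I, II, III and V. Domain IV had fewer such nucleotides than any other domain (224 of 480). Both groups of 4 lay there. Without the nucleotides within 65 of the 2 highest maxima, 6.54% of the remaining members lay in domain IV, against 14.5% with them. The maximum at nucleotide 2178 lies in domain IV, so this step also removed nucleotides with at least 100 hits there. The share of such nucleotides that remained was not computed, so the 6.54% has no background beside it. With only the strongest member of each group counted, 9.20% of the members lay in domain IV. Since both groups of 4 lay there, this step lowers the share of domain IV. The nucleotides with at least 100 hits, of which 9.44% lay in domain IV, were not reduced in the same way. Domain I had the lowest median rate of members (4.77%) and domain III the highest (8.35%), with maxima of 39.1% and 57.1%. Deletion-led nucleotides made up 4.74% of the nucleotides with at least 100 hits in domain I (23 of 485) and 2.25% in domain VI (7 of 311). In domains II to V their share was between 3.92% and 4.47%.

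In stretches of 200 nucleotides, members were found in all 17, and numbered between 2 and 12. The most lay in nucleotides 2601 to 2800, with 12 of 148 (8.11%). The fewest per nucleotide with at least 100 hits lay in 401 to 600, with 3 of 170 (1.76%). The longest distance between successive members, 259 nucleotides from C1846 to G2105, held only 35 nucleotides with at least 100 hits. Between C105 and A284, in contrast, 117 such nucleotides contained no member but 5 deletion-led nucleotides. The first gap thus fell mostly on nucleotides with under 100 hits, and the second mostly on nucleotides above that limit.

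**Figure D5:**
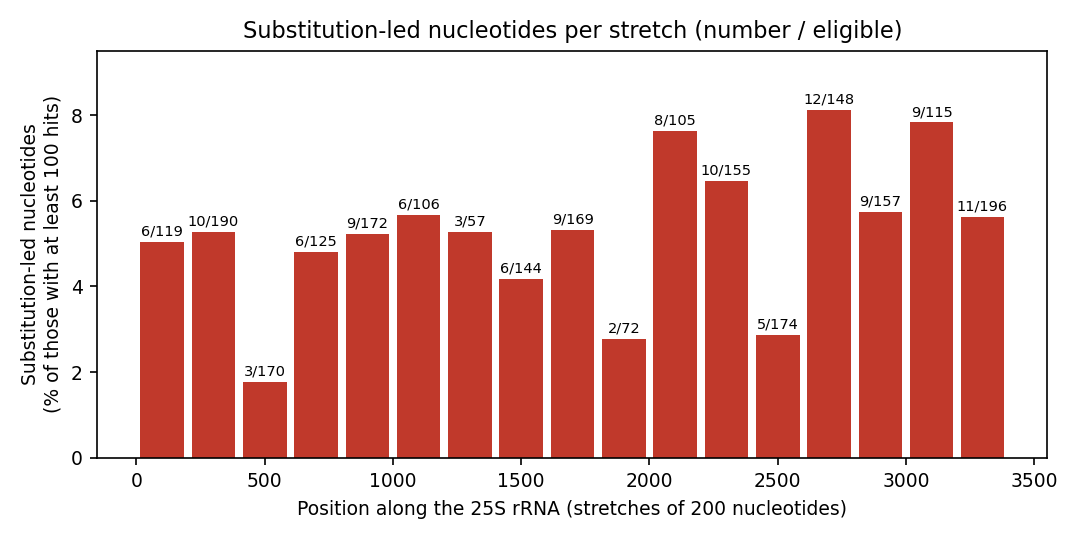
Substitution-led nucleotides in percent of the nucleotides with at least 100 hits (vertical axis) for successive stretches of 200 nucleotides along the 25S rRNA, the last being shorter. Above each bar stand the numbers of members and eligible nucleotides, from 2 of 72 to 12 of 148. The share lies between 1.76% and 8.11%.

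Some members coincide with nucleotides known to be modified in yeast 25S rRNA. These were looked up among the members after their values were seen. How many of all modified nucleotides with at least 100 hits were members was not computed, so no background share stands beside them. Whether the modifications gave rise to the substitutions was not tested. A2142 is the N1-methyladenosine made by Bmt2, and had 197 substitutions and 2 deletions in 2684 hits (7.34%). Its upstream neighbour U2141 was also a member, with 91 substitutions and 25 deletions in 2467 hits. Downstream, A2143 had 76 substitutions in 2716 hits and stayed below the limit.
A2142 (chrXII:453030-453050): ctgtctaatTAaaacatagca
Both neighbours of this modified base thus also carried substitutions, and U2141 and A2142 lay 3 and 4 nucleotides inside the 5′ end of a hit peak.

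C2278, the 5-methylcytidine made by Rcm1, had 13 substitutions in 125 hits (10.4%). A2281, which carries a 2′-O-methyl group on its ribose, had 20 in 131 hits (15.3%). They lie 3 nucleotides apart, with 1 substitution or none at A2279 and A2280 between them.
C2278 and A2281 (chrXII:452894-452914): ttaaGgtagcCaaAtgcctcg
G867, another 2′-O-methylated nucleotide, had 17 substitutions in 381 hits (4.46%). A2280 is 2′-O-methylated as well and was not a member. The many other ribose-methylated nucleotides of this rRNA were not counted, so these values do not show how often such nucleotides are members. The 5-methylcytidine of domain V, C2870, was not a member, with 6 substitutions in 1071 hits. Hits at C2278 and C2870 differed by almost an order of magnitude, and the cause of their different rates was not tested.

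The remaining methylated bases of this rRNA could not enter the set, because they had under 100 hits. U2634, an N3-methyluridine made by Bmt5, had 13 substitutions in 26 hits, and its neighbours U2633 and A2635 had none in 26 and 25 hits. U2843, the N3-methyluridine made by Bmt6, had 5 substitutions in 17 hits. A645, the N1-methyladenosine made by Rrp8, had no hits. With so few hits the rates of these uridines are uncertain, and at A645 nothing was measured. Whether further members are modified was not tested.

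Members occurred at all levels of hits. Their share was 6.15% at 100 to 200 hits (52 of 846), 5.29% at 200 to 500, 4.27% at 500 to 1000 and 5.65% at 1000 to 5000 (17 of 301). Above 5000 hits it was 2.05%, with U2173, U2175, C2545 and G2605 as the 4 members of 195. The median rate of members showed no steady trend, with 7.74%, 6.06%, 4.63%, 6.83% and 6.06% from the lowest class to the highest. In the lowest class a single unit was up to 1% of hits, so the rates there are the least certain. The 17 members with 1000 to 5000 hits, from C695 and A705 in domain II to U3380 in domain VI, had rates between 3.64% and 18.4%, which single units change little.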

How the data were processed

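Per the methods, the authors used Flexbar to trim and filter the reads, Novoalign for alignment to the yeast genome, and pyCRAC for the pileup (pyPileup, options L 50 and a limit of 100000). The submitters' processing notes name build R64. Tool versions are not given in the sources used here. The deposited values are whole numbers per nucleotide labelled per 100000 reads, and were treated as a score, not as counts. It is not known whether scaling or a cap on reads produced them, so no counting interval is given for hits or rates. The deposited totals of RNA classes and snoRNAs were not used. The series' design text names another tagged protein than its title, which does not affect the untagged control.

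Members were found with whole-number arithmetic. Base composition, groups (distance up to 5 nucleotides), peaks (at least 1000 hits), 5-nucleotide steps and location were described with no test, since there is 1 library. The 2-fold and 20% limits for steps in hits were chosen after seeing the data. The members and lists were chosen with earlier results of these data known. The text names the 20 highest rates, the 5 members with the most substitutions, groups of 3 or more and the nucleotides beside the limit. Modified, edge, deletion-bearing and further members were added after their values were seen. Domain ends are approximate, rounded to 10 nucleotides. The 25S gene is repeated (2 entries in RefSeq's R64), and the pileup does not separate the copies. The functions were tested on 20 simulated pileups. Python 3.11.15, numpy 2.4.6, pandas 2.3.3, scipy 1.17.1 and matplotlib 3.10.9 were used.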

Additional observations from a re-analysis of the deposited data

How the results depend on the processing

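The alternatives changed 1 choice at a time. A share was taken as unchanged within the 95% Wilson interval of its main value over the 124 nucleotides, the median rate within its binomial interval (5.42% to 7.53%), and the number within 1.5 times. Of 157 values, 131 were unchanged. The intervals treat the members as independent, which members of a group may not be. Most alternatives kept many of the same members of the same library, so many values could hardly change. The count of unchanged values is therefore no separate support for the results. With at least 200 hits there were 72 members, of which 43.1% had another nearby, 29.2% lay in peaks and 18.1% near a peak end. The members in peaks and near a peak end were the same 21 and 13 as before, so these 2 shares rose by construction. Of the 1528 nucleotides at that level, 496 lay in peaks. With at least 1000 hits there were 21, of which 14.3% were C, 14.3% G and 47.6% U. Among all 496 nucleotides at that level the shares were 19.0% C, 29.0% G and 28.2% U. A made up 23.8% of both. Of the 21 members, 28.6% had another nearby and all (100%) lay in peaks by construction. Near a peak end lay 61.9%, against 39.5% of all peak nucleotides. Domain I held 0, also by construction, since the first peak starts at nucleotide 690, beyond that domain. Domains IV and VI held 23.8% each, and their share of the nucleotides with at least 1000 hits was not computed. A limit of 2% changed gave a median rate of 4.55% and 64.9% with another nearby. A limit of 5% gave 80 members, a median of 8.93% and 32.5% with another nearby. Fewer or more members make near neighbours rarer or commoner by construction. Without 65 nucleotides around the 2 highest maxima, 6.54% lay in domain IV, where this step also removed nucleotides with at least 100 hits. With 1 member per group, 0% had another within 5 nucleotides by construction and 9.20% lay in domain IV. Another member lay within 2 nucleotides for 29.8% and within 10 for 69.4%. In peaks of at least 500 hits lay 29.0%, and in peaks of at least 2000 hits 10.5%. Otherwise the cause was not tested. No paired analysis was possible because only 1 control library was analysed, so that no replicate could be left out either.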

Other observations

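Below the minimum of 100 hits, 51 of the 983 nucleotides with 1 to 99 hits also reached 3% with substitutions equal to or above deletions (5.19%), a share close to that among the nucleotides with at least 100 hits. At such hits 1 to 3 substitutions are enough to reach the limit. The 39 nucleotides with no hit give no information.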
